A study of Mus musculus with 6 samples.

Results

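PDGF, VEGF and FGF paracrine factors are secreted proteins with which a cell addresses its neighbours. The 10 genes described here were Pdgfa, Pdgfb, Pdgfc, Pdgfd, Vegfa, Vegfb, Vegfc, Fgf1, Fgf2 and Angptl4. They were chosen by gene symbol among the 46517 genes counted by RNA sequencing of primary cultured mouse renal tubular epithelial cells (RTECs), and all 10 were found. TGF-β1, a profibrotic cytokine, was compared with control (CTL). Both groups were FvB wild type cells grown from a filtered collagenase digest of kidneys in RPMI medium with serum, EGF and ITS, and then held in serum-free RPMI for 24 h. 3 CTL cultures and 3 cultures given 50 ng/ml TGF-β1 for 24 h were sequenced. By the sample labels the mice were 4 to 6 weeks old, while the methods give a slightly younger range and describe males. Neither the labels nor the methods say whether cultures came from separate animals, so p-values measure the spread between these cultures.

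Platelet-derived growth factors (PDGFs) are dimers that bind the receptor tyrosine kinases PDGFRα and PDGFRβ on mesenchymal cells such as fibroblasts and pericytes. Vascular endothelial growth factors (VEGFs) act on FLT1, KDR and FLT4 of blood and lymphatic endothelium, with neuropilins as co-receptors. Fibroblast growth factors (FGFs) act on 4 FGF receptors, and FGF1 and FGF2 lack a classical secretion signal. ANGPTL4 is a secreted inhibitor of lipoprotein lipase. In the kidney, tubule epithelium is a known source of PDGF and VEGF ligands for the fibroblasts, pericytes and capillaries that lie around it.

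Reads on genes numbered 28313080 to 34183497 per library, and the detection floor of 3 counts corresponded to 0.0890 to 0.103 CPM (read counts scaled to library size with TMM factors), which covers counting error only. Summed over 8 epithelial marker genes that include Cdh1, Epcam, Krt8 and Pax8, the level was 1051 to 2851 CPM, and 2 of the 8, Pax8 and Cdh16, fell with TGF-β1 in the test described below. Nephron segment markers other than Lrp2 were low. Slc34a1, Slc5a2, Kcnj1 and Aqp2 stayed under 1 CPM in every library. Lrp2, the endocytic receptor megalin, fell from 62.5 to 74.2 CPM in CTL to 28.9 to 41.9 CPM after TGF-β1 (log2 fold change -0.93, edgeR adjusted p = 0.0165). Cubn, also a proximal tubule marker, had 4.13 to 5.30 CPM and did not pass (edgeR adjusted p = 0.698, and 0.565 with replicate number as a block). Hnf4a, at 0.18 to 1.18 CPM, was called lower only with that block (adjusted p = 0.0591 and 0.00448, edgeR). Of 9 endothelial markers 7 were under 1 CPM throughout, and the 8 leukocyte markers summed to 6.84 to 21.4 CPM, with 1, Csf1r, lower after TGF-β1. The podocyte and mesangial markers Synpo, Wt1 and Podxl were present at 295 to 541, 33.4 to 106 and 20.4 to 35.9 CPM, and all 3 were called lower after TGF-β1 with replicate number as a block (adjusted p = 0.00662, 0.00603 and 0.0199, edgeR) but not without it (0.0739, 0.647 and 0.0994). Of 9 fibroblast and pericyte markers, Lum was at 0 to 0.83 CPM and Dpt at 0 to 0.03 CPM, while Pdgfrb reached 227 CPM. Cspg4, a pericyte proteoglycan, had 31.8 to 67.3 CPM in CTL and 74.0 to 137 CPM after TGF-β1 without overlap (log2 fold change 1.03, adjusted p = 0.102, edgeR, and 1.88e-05 with the block). Of the 9, 7 were tested and 0 passed without the block, with a median log2 fold change of -0.5. With the block 1 rose, Cspg4, and 2 fell, Pdgfrb and Dcn (log2 fold changes of -0.86 and -1.21, adjusted p = 0.000431 and 0.0256, edgeR). Replicate 2 stood apart in both groups. Y-linked transcripts, here scaled to library size without TMM factors, summed to 154 CPM in CTL and 136 CPM in TGF-β1 replicate 2. They were at most 0.177 CPM in the other 4 libraries, which goes against cultures from males only. Both replicate 2 cultures thus held male cells, so replicate 2 did not share all its animals with the other replicate numbers. Epcam was 63.3 and 53.5 CPM in CTL and TGF-β1 replicate 2, against 163 to 288 in the others, and the summed fibroblast and pericyte markers, mostly Pdgfrb and Cspg4, were 313 and 262 CPM against 110 to 160. The part of these markers in the results below was not tested.

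Of the 10 paracrine factors, Pdgfa, Pdgfc and Vegfa rose with TGF-β1, and Pdgfd and Vegfb fell. Angptl4 was 2.57-fold and Fgf2 2.23-fold higher by estimate, without passing unless replicate number was taken as a block, DESeq2 was used or both replicate 2 cultures were left out. Pdgfb, Vegfc and Fgf1 did not pass in either fit. All 10 had enough counts to be tested by edgeR's quasi-likelihood test across 15862 genes with Benjamini-Hochberg adjustment. The 5 calls compare with 11.7% of all tested genes called, made up of 5.00% higher and 6.69% lower. Without both replicate 1 cultures 0 of 15961 genes were called by edgeR, members included, and 1938 had an unadjusted p under 0.05. Same-numbered CTL and TGF-β1 cultures deviated together, so the fit with replicate number as a block is given where it matters, and in it 5 members rose and 2 fell while 34.2% of all genes were called, 15.1% higher and 19.1% lower. The same numbers of members, 5 and 2, were called by DESeq2 (7.57% of all genes higher, 9.59% lower) and by edgeR without both replicate 2 cultures (6.79% and 8.09%). With scaling by library size only, the 793 genes higher and 1061 lower became 508 and 1467, and the members' calls stayed as they were. The CPM of 6 members did not overlap between the groups, 4 above CTL and 2 below, against 17.2% and 18.0% of all tested genes, or 35.1% in either direction. The median log2 fold change of the members was 0.43, and that of all tested genes was -0.0028.

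**Figure D1:**
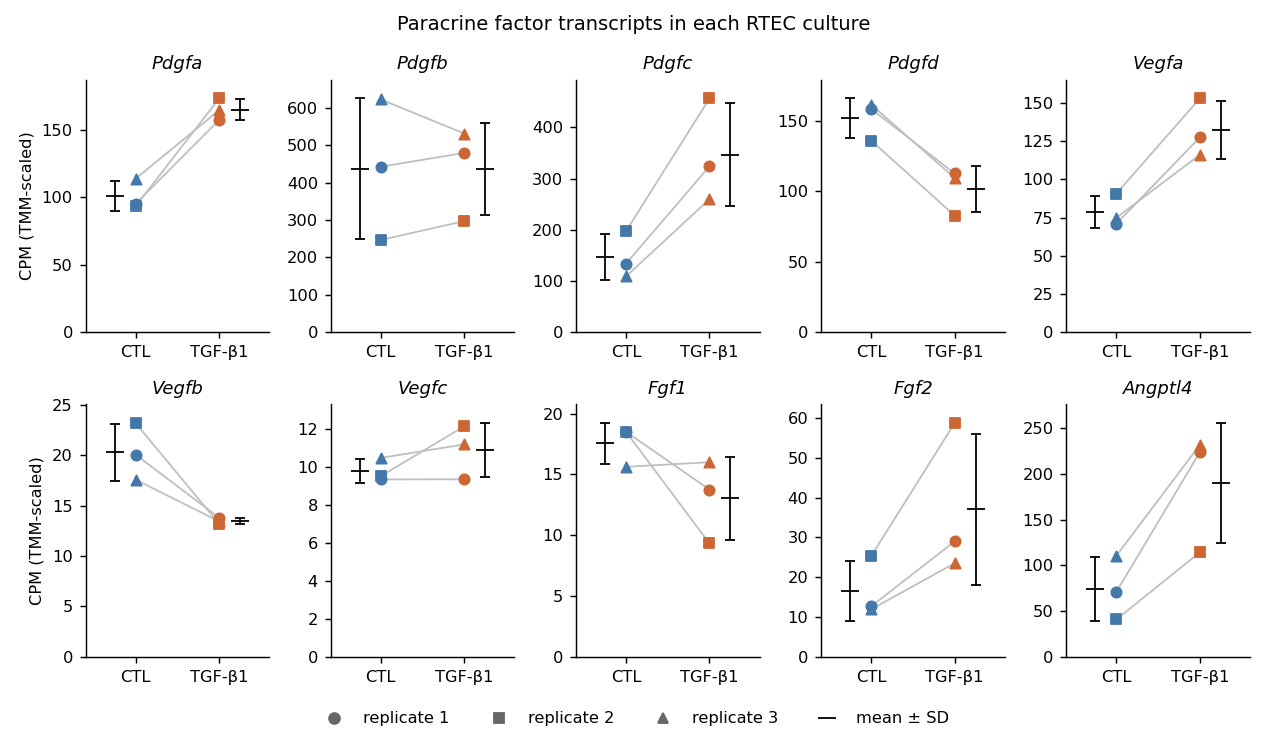
CPM of the 10 paracrine factor transcripts (y axis, linear, from 0) in CTL and TGF-β1–treated RTEC cultures. Symbols give the replicate number, grey lines join same-numbered cultures and black bars show mean ± SD (n = 3). Pdgfa, Pdgfc, Vegfa and Angptl4 lie above CTL in every TGF-β1 culture, and Pdgfd and Vegfb lie below.

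Among the PDGF genes, the A and C chains rose, the D chain fell, and the B chain differed more between replicate numbers than between groups. PDGF-A and PDGF-B assemble into active dimers inside the cell. PDGF-C and PDGF-D are secreted with a CUB domain that a protease must remove before they bind a receptor.

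Pdgfc (ENSMUSG00000028019, chromosome 3 of GRCm38 from 81036416 to 81214040, plus strand) had 134, 197 and 109 CPM in CTL replicates 1, 2 and 3, and 324, 457 and 259.9 CPM after TGF-β1. The lowest TGF-β1 culture was above the highest CTL culture, and replicate 2 was the highest in both groups. The rise was 2.37-fold (95% confidence interval 1.45 to 3.86), 1.24 on the log2 scale (standard error, SE, 0.29, edgeR adjusted p = 0.046). The log2 ratios of same-numbered cultures were 1.28, 1.21 and 1.26, and the block narrowed the SE to 0.04 (adjusted p = 2.53e-06 from edgeR). Without the block, Pdgfc kept an adjusted p-value under 0.05 in only 1 of 6 fits that left out a culture, the one without CTL replicate 2 (0.0395), and the others gave 0.0586 to 0.174 with log2 fold changes of 0.99 to 1.42 (edgeR).

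Pdgfa (ENSMUSG00000025856, chromosome 5 from 138976014 to 138997370, minus strand) had 95.2, 93.4 and 114 CPM in CTL and 157, 173 and 164 CPM after TGF-β1, in replicate order. The groups were well apart and no replicate number was high in both. The rise was 1.64-fold (95% confidence interval 1.41 to 1.90), a log2 fold change of 0.71 (SE 0.09, edgeR adjusted p = 0.00851). Leaving out CTL replicate 1 raised the adjusted p-value to 0.054 (edgeR), and the other 5 fits that left out a culture kept it at or below 0.0476. An antisense gene, 6330403L08Rik, covers 26.1% of the Pdgfa exon length. The sources used here do not state whether strand was used in counting, so reads there cannot be assigned with certainty. 6330403L08Rik itself had 13.8 to 14.6 CPM in CTL and 20.2 to 21.8 CPM after TGF-β1.

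Pdgfd (ENSMUSG00000032006, chromosome 9 from 6168584 to 6378850, plus strand) had 159, 136 and 162 CPM in CTL and 113, 82.9 and 109.6 CPM after TGF-β1. Every TGF-β1 culture was below every CTL culture, with replicate 2 the lowest in each group. The fall was to 0.669-fold (95% confidence interval 0.533 to 0.838), a log2 fold change of -0.58 (SE 0.13, edgeR adjusted p = 0.0443, 0.000133 with the block). Without the block it passed in 1 of 6 fits that left out a culture, the one without TGF-β1 replicate 2 (0.0424), and the others gave adjusted p-values of 0.0563 to 0.162 (edgeR). In such bulk RNA, fewer cells of a type and less RNA per cell cannot be told apart.

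Pdgfb (ENSMUSG00000000489, chromosome 15 from 79995874 to 80014977, minus strand) had 443, 247 and 623 CPM in CTL and 479.8, 297 and 532 CPM after TGF-β1. The groups overlapped fully, and replicate 2 was the lowest in each. Its log2 fold change was -0.0038 (95% confidence interval -0.91 to 0.90, adjusted p = 0.997 from edgeR). With the block the interval was -0.17 to 0.27 (adjusted p = 0.712 from edgeR), and the same-numbered pairs differed in sign at 0.12, 0.27 and -0.23.

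Upstream sequence is shown for the 2 PDGF genes that moved in opposite directions and for which a RefSeq window (GRCm38.p6) was at hand. Each runs 5′ to 3′ over the 250 bases before the annotated start, with capitals marking CAGAC, a box contacted by SMAD proteins, on either strand. Pdgfc lies at chr3:81036166-81036415 on the plus strand and Pdgfd at chr9:6168236-6168485 on the plus strand.
Pdgfc: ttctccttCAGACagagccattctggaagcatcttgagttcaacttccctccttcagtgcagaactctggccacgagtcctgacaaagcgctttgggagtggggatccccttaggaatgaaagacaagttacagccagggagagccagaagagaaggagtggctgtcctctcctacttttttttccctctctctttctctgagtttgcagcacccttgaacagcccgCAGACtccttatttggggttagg
Pdgfd: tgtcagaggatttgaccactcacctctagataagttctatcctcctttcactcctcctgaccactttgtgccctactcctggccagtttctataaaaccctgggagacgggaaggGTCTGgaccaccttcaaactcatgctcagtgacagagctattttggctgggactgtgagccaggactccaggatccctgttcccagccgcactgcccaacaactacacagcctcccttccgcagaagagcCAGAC
Both windows held 2 copies, the first base at 242 and 23 bases before the start in Pdgfc and at 135 and 5 bases in Pdgfd, so this box was shared by a gene that rose and a gene that fell. CAGAC was found in 42.2% of 32851 such windows over all genes. Also searched on both strands were ACGTG, a core of the hypoxia response element, the related core GCGTG, and the AP-1 site TGAGTCA, and neither window held any of these. The Pdgfa window overlapped annotated exons by 93 bases and is not printed, and Pdgfb had no window.

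Of 3 PDGF receptor genes 0 passed the test and 1 passed with the block (edgeR). For this and each later list, the shares of all tested genes were 5.00% higher and 6.69% lower, or 15.1% and 19.1% with the block. Pdgfrb had 102, 227 and 68.3 CPM in CTL and 51.1, 115 and 45.8 CPM after TGF-β1, and was lower in each same-numbered pair (log2 fold change -0.91, adjusted p = 0.34, edgeR; with the block -0.86, adjusted p = 0.000431). Pdgfra had 20 to 75 counts per library, or 0.65 to 2.22 CPM, with a log2 fold change of 0.38 (95% confidence interval -0.76 to 1.52). Pdgfrl, a receptor-like gene, had 11.2 to 35.1 CPM. Of 3 genes for proteases that activate PDGF-C or PDGF-D, 1 fell and 3 fell with the block. Plat, tissue plasminogen activator, which can activate PDGF-C, had 256, 271 and 239 CPM in CTL and 158, 214 and 170 CPM after TGF-β1 (log2 fold change -0.50, adjusted p = 0.0487 from edgeR). Plau, urokinase, and St14, matriptase, both able to activate PDGF-D, had log2 fold changes of -1.30 and -0.40 (adjusted p = 0.165 and 0.676, edgeR), and -1.22 and -0.40 with the block (0.000127 and 0.000429).

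**Figure D2:**
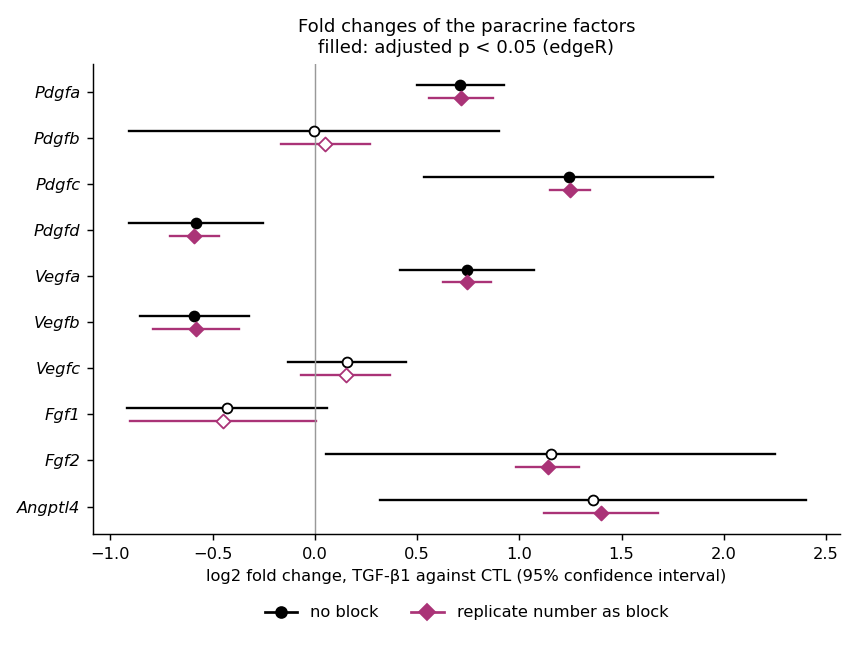
Log2 fold change of TGF-β1 against CTL (x axis) for each paracrine factor, with 95% confidence intervals. Black circles are from edgeR without a block and purple diamonds from edgeR with the replicate number as a block, and filled symbols have an adjusted p-value under 0.05. Fgf2 and Angptl4 are filled only with the block, at 1.14 and 1.40.

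Of the VEGF genes, Vegfa rose, Vegfb fell and Vegfc did not pass. VEGF-A is the main growth and survival factor of blood capillaries, VEGF-B binds FLT1 but not KDR, and VEGF-C acts through FLT4 on lymphatic vessels.

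Vegfa (ENSMUSG00000023951, chromosome 17 from 46016993 to 46032369, minus strand) had 71.0, 90.7 and 74.9 CPM in CTL and 128, 153 and 116 CPM after TGF-β1. All TGF-β1 cultures were above all CTL cultures, and replicate 2 was the highest of each group. The rise was 1.68-fold (95% confidence interval 1.34 to 2.11), a log2 fold change of 0.75 (SE 0.13, edgeR adjusted p = 0.0237). In edgeR fits without the block, leaving out CTL replicate 1 or 3 or TGF-β1 replicate 1 gave adjusted p-values of 0.102, 0.0659 and 0.0845. The counts are per gene and do not separate the splice forms of Vegfa.

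Vegfb (ENSMUSG00000024962, chromosome 19 from 6982473 to 6987651, minus strand) had 20.0, 23.2 and 17.6 CPM in CTL. After TGF-β1 it had 13.8, 13.2 and 13.4 CPM, a narrow band below every CTL culture. The fall was to 0.665-fold (95% confidence interval 0.553 to 0.799), a log2 fold change of -0.59 (SE 0.11, edgeR adjusted p = 0.0244, 0.00193 with the block). Adjusted p-values were 0.104 without CTL replicate 1 and 0.0896, 0.058 and 0.0671 without TGF-β1 replicates 1, 2 and 3 (edgeR, no block).

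Vegfc (ENSMUSG00000031520, chromosome 8 from 54077606 to 54187096, plus strand) had 9.36, 9.53 and 10.5 CPM in CTL and 9.37, 12.2 and 11.2 CPM after TGF-β1. The groups overlapped. Its log2 fold change was 0.16 (95% confidence interval -0.13 to 0.45, adjusted p = 0.452 from edgeR), so a change beyond 1.36-fold lies outside the interval.

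The same 250-base windows are shown for Vegfa and Vegfb, which also moved in opposite directions. Vegfa lies at chr17:46032378-46032627 and Vegfb at chr19:6987652-6987901, both on the minus strand. Capitals mark CAGAC in Vegfa, and the hypoxia core GCGTG in Vegfb, each on either strand.
Vegfa: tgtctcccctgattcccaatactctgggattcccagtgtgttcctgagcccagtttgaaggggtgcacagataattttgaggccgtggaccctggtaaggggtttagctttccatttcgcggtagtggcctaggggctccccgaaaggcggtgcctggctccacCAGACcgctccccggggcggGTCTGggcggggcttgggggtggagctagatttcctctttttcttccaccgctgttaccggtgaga
Vegfb: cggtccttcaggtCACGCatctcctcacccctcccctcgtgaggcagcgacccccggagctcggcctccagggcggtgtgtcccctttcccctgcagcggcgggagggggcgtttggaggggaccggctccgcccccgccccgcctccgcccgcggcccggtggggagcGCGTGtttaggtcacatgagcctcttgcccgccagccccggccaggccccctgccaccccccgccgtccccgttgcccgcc
Vegfa held 2 copies of CAGAC, with first bases 86 and 66 bases before the start, and 0 of either hypoxia core. Vegfb held 2 copies of GCGTG, at 237 and 81 bases, and no SMAD box. The core GCGTG was found in 28.2% of all windows, the core ACGTG in 16.6% and the AP-1 site in 4.46%, and these matches are a description of letters in a short window.

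Of 5 VEGF receptor genes 1 rose, and with the block 2 rose and 2 fell. Nrp2, a neuropilin co-receptor, had 86.3, 73.0 and 94.7 CPM in CTL and 122, 108 and 122 CPM after TGF-β1 (log2 fold change 0.47, SE 0.11, adjusted p = 0.0406 from edgeR). Nrp1 was the most abundant of the 5 at 524 to 833 CPM, with a log2 fold change of 0.15 (adjusted p = 0.624, edgeR, and 0.0445 with the block). Flt1 had 44.8, 49.7 and 35.4 CPM in CTL and 22.7, 32.6 and 21.9 CPM after TGF-β1, with no overlap (log2 fold change -0.75, adjusted p = 0.0623, edgeR, and 0.000244 with the block). Flt4 had 54.4, 33.4 and 76.5 CPM in CTL and 32.6, 18.0 and 43.6 CPM after TGF-β1, lower in each same-numbered pair (log2 fold change -0.80, adjusted p = 0.259, edgeR, and 2.88e-05 with the block). Kdr, the main signalling receptor for VEGF-A on endothelium, had 8 to 22 counts per library.

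Other members of the family were scarce. Pgf, placental growth factor, had 0.83 to 3.27 CPM and a log2 fold change of 0.25 (adjusted p = 0.799, edgeR), and Vegfd was too low to be tested. VEGF-C needs proteolytic trimming, and of 6 genes for that process 2 rose, or 3 with the block. Pcsk5, a proprotein convertase, had 12.4, 16.9 and 11.0 CPM in CTL and 34.9, 36.9 and 25.5 CPM after TGF-β1 (log2 fold change 1.27, adjusted p = 0.0182 from edgeR). Furin rose by a log2 fold change of 0.53 (adjusted p = 0.0131 from edgeR). Ccbe1, a cofactor of VEGF-C cleavage, had 204, 115 and 282 CPM in CTL and 428, 262 and 458 CPM after TGF-β1, with a log2 fold change of 0.93 (adjusted p = 0.159, edgeR, and 0.000395 with the block).

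**Figure D3:**
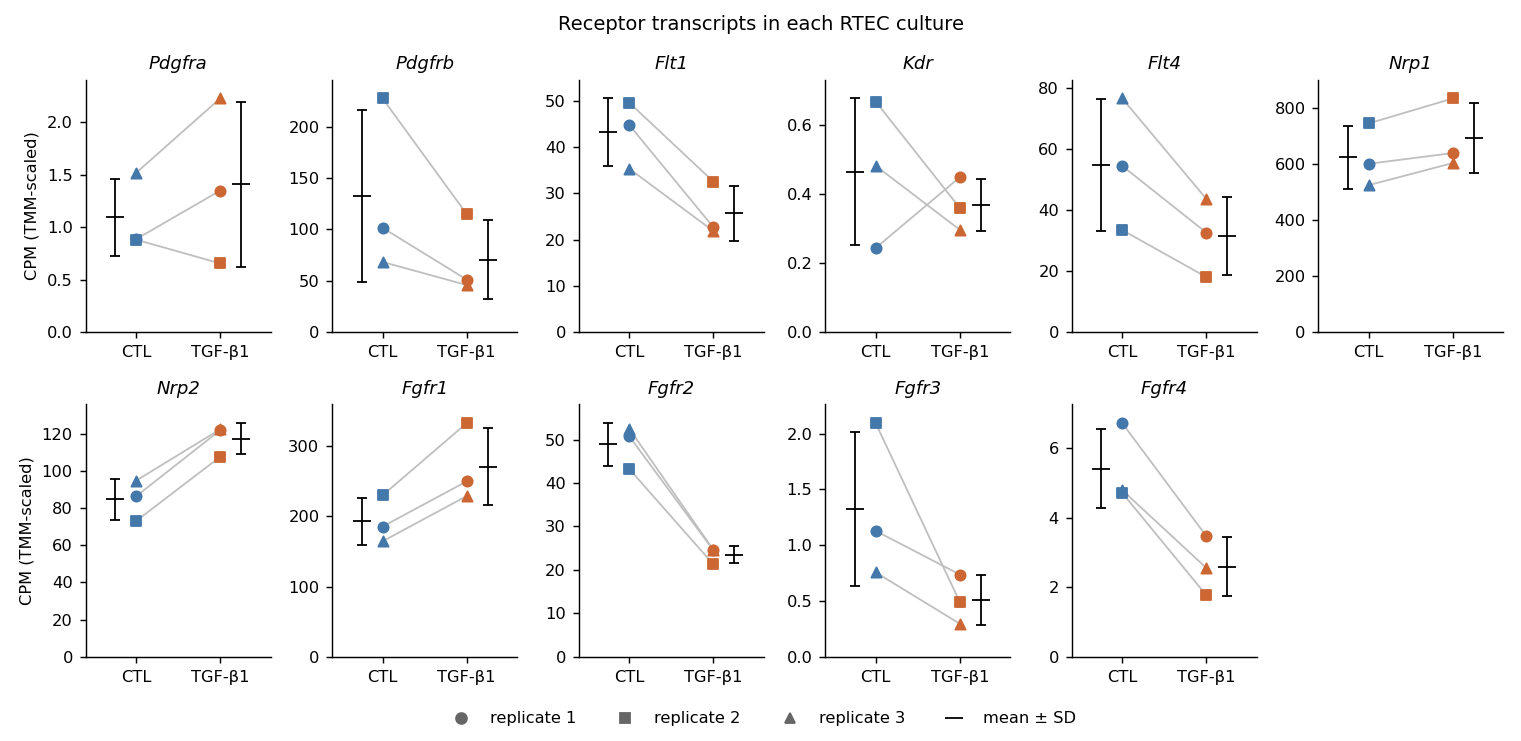
CPM of PDGF, VEGF and FGF receptor transcripts (y axis, linear, from 0) in CTL and TGF-β1–treated RTEC cultures. Symbols give the replicate number, grey lines join same-numbered cultures and black bars show mean ± SD (n = 3). Fgfr2 falls from 48.9 to 23.5 CPM on average, and Nrp2 rises from 84.7 to 117 CPM.

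FGF1 and FGF2 are the prototypes of the FGF family, bind heparan sulfate and activate FGF receptors on many cell types. Neither passed in edgeR over all 6 cultures without the block, and the values of Fgf2 followed the replicate number.

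Fgf2 (ENSMUSG00000037225, chromosome 3 from 37348346 to 37410108, plus strand) had 12.7, 25.3 and 11.9 CPM in CTL and 29.0, 58.7 and 23.5 CPM after TGF-β1. CTL replicate 2 was above TGF-β1 replicate 3, so the groups overlapped, while each TGF-β1 culture was above its same-numbered CTL culture. The edgeR estimate on the log2 scale was 1.15 (SE 0.45, adjusted p = 0.158). The same-numbered log2 ratios were 1.20, 1.21 and 0.98, and the block gave 1.14 on the log2 scale (SE 0.07, edgeR adjusted p = 1.87e-05). Without both replicate 2 cultures, which had low epithelial and high Pdgfrb values, it was 1.09 (adjusted p = 0.00519, edgeR, no block). Nudt6, an antisense neighbour with 1.6 to 2.48 CPM, and Gm43439, with 0 counts, overlap 13.2% of the Fgf2 exon length.

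Fgf1 (ENSMUSG00000036585, chromosome 18 from 38838673 to 38929472, minus strand) had 18.5, 18.5 and 15.6 CPM in CTL and 13.8, 9.32 and 16.0 CPM after TGF-β1. Replicate 3 cultures differed least and replicate 2 cultures most, with same-numbered log2 ratios of -0.43, -0.99 and 0.034. Its log2 fold change was -0.43 (95% confidence interval -0.92 to 0.06, adjusted p = 0.223, edgeR, and 0.119 with the block). Without both replicate 2 cultures it was -0.20 (adjusted p = 0.344, edgeR).

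Of 7 genes for FGF receptors and co-receptors 1 rose and 1 fell, and 1 was too low to be tested. With the block 2 rose and 4 fell, beside 15.1% and 19.1% of all tested genes. Fgfr2 had 50.8, 43.3 and 52.5 CPM in CTL and 24.5, 21.3 and 24.6 CPM after TGF-β1, a log2 fold change of -1.06 (SE 0.10, edgeR adjusted p = 0.00399) that passed in all 6 fits leaving out a culture. Fgfrl1, a receptor that lacks the kinase domain, rose from 70.3 ± 3.27 to 83.9 ± 0.427 CPM (SD, n = 3 each), with a log2 fold change of 0.25 (adjusted p = 0.026 from edgeR). Fgfr1 had the highest CPM of the family, without regard to transcript length. It had 185.5, 230.0 and 164 CPM in CTL and 249.9, 333 and 229 CPM after TGF-β1 (log2 fold change 0.48, adjusted p = 0.146, edgeR, and 0.000147 with the block). Fgfr4 had 4.71 to 6.71 CPM in CTL and 1.77 to 3.46 CPM after TGF-β1 (log2 fold change -1.06, adjusted p = 0.06, edgeR, and 0.000842 with the block). Fgfr3 had 10 to 69 counts per library (log2 fold change -1.39, adjusted p = 0.122, edgeR, and 0.0113 with the block).

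Of 20 other FGF ligand genes 9 had enough counts to be tested, of which 1 rose and 2 fell. With the block 1 rose and 4 fell. Fgf21, an endocrine FGF of stressed cells, had 0.95, 1.00 and 1.82 CPM in CTL and 5.04, 10.1 and 5.31 CPM after TGF-β1 (log2 fold change 2.44, SE 0.40, adjusted p = 0.0173 from edgeR). Fgf18 had 21.7, 24.6 and 18.2 CPM in CTL and 9.62, 10.6 and 9.64 CPM after TGF-β1 (log2 fold change -1.11, SE 0.12, adjusted p = 0.00667 from edgeR). Fgf10, which signals through FGFR2 in epithelium, had 30, 85 and 17 counts in CTL and 3, 5 and 1 counts after TGF-β1 (adjusted p = 0.0384 from edgeR). 5 of the 20 were listed at 0 in every library. Of 4 genes linked to FGF release 3 were tested and 0 passed in either fit (edgeR), and S100a13, the most abundant, had 10.7 to 14.8 CPM.

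Angptl4 (ENSMUSG00000002289, chromosome 17 from 33773750 to 33781830, minus strand) had 70.8, 40.8 and 110.3 CPM in CTL and 224, 114 and 231 CPM after TGF-β1. TGF-β1 replicate 2 was just above CTL replicate 3, and replicate 2 was the lowest of each group. The edgeR estimate on the log2 scale was 1.36 (SE 0.43, adjusted p = 0.0975). The same-numbered log2 ratios were 1.66, 1.48 and 1.07, and the block gave 1.40 (SE 0.11, adjusted p = 0.000408, edgeR). Without both replicate 2 cultures the log2 fold change was 1.33 (adjusted p = 0.0176, edgeR, no block).

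Of 11 genes for angiopoietins, Tie receptors and other angiopoietin-like proteins 7 were tested, of which 2 fell. With the block 3 rose and 2 fell. Those that rose were Angptl2, Angpt1 and Angpt4, at means of 81.0, 25.1 and 5.58 CPM in CTL and 165, 42.3 and 9.91 CPM after TGF-β1. Their adjusted p-values were 0.133, 0.399 and 0.0546 without the block, and 5.74e-06, 0.000183 and 0.00102 with it (edgeR). Angpt2, a context-dependent antagonist of the TIE2 receptor, had 3.78, 3.92 and 1.89 CPM in CTL and 0.80, 1.11 and 0.56 CPM after TGF-β1 (log2 fold change -1.96, adjusted p = 0.0261 from edgeR). Angptl7 had 4.03, 3.52 and 2.20 CPM in CTL and 0.61, 1.21 and 0.36 CPM after TGF-β1 (log2 fold change -2.17, adjusted p = 0.0343 from edgeR). Of 5 genes of the lipoprotein lipase axis 3 were tested and 0 passed in either fit (edgeR). Lpl, the enzyme that ANGPTL4 inhibits, had 0.23 to 1.31 CPM, and Gpihbp1, its endothelial anchor, was at 0 in every library.

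Levels of different genes were compared as CPM per kb of exon, since longer transcripts collect more reads. In CTL cultures Pdgfb was highest at 105.1 ± 45.2 CPM per kb (SD, n = 3), followed by Pdgfd at 48.3 ± 4.42, Pdgfa at 32.3 ± 3.61 and Pdgfc at 28.8 ± 8.94. Angptl4 followed with 20.9 ± 9.85, Vegfa with 18.4 ± 2.43, Vegfb with 12.6 ± 1.75 and Vegfc with 4.00 ± 0.251 CPM per kb. Fgf1 and Fgf2 were lowest at 3.21 ± 0.305 and 2.45 ± 1.11 CPM per kb. Among neighbours in this order, the cultures of Pdgfa and Pdgfc, Pdgfc and Angptl4, Angptl4 and Vegfa, and Fgf1 and Fgf2 overlapped.

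After TGF-β1 Pdgfb was at 104.8 ± 29.6 CPM per kb and Pdgfc was second at 68.2 ± 19.7, with overlapping cultures. Angptl4 and Pdgfa followed at 53.6 ± 18.5 and 52.9 ± 2.54 CPM per kb, then Pdgfd at 32.3 ± 5.20, Vegfa at 30.9 ± 4.42 and Vegfb at 8.39 ± 0.191. Fgf2, Vegfc and Fgf1 were lowest at 5.47 ± 2.79, 4.46 ± 0.582 and 2.39 ± 0.623 CPM per kb. Pdgfa and Pdgfd, Vegfa and Vegfb, and Vegfc and Fgf1 were the neighbours whose cultures did not overlap.

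**Figure D4:**
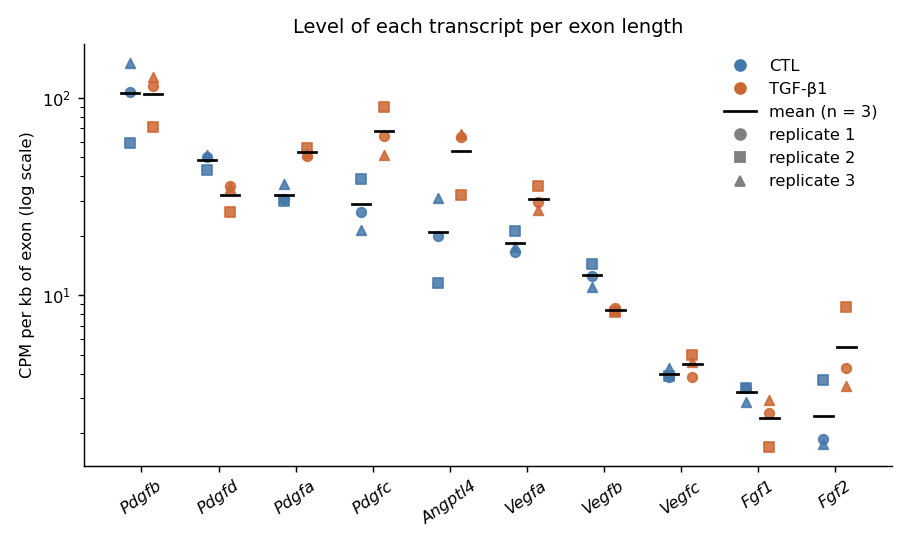
Level of each transcript in CPM per kb of exon (y axis, log scale), ordered by the CTL mean, in CTL and TGF-β1–treated cultures. Symbols give the replicate number and lines the mean of 3 cultures. Pdgfb has the highest mean in both groups, 105.1 and 104.8, and the FGF genes lie at the low end.

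Each ligand was also expressed as a share of its family. Vegfa made up 50.4%, 53.6% and 53.4% of the summed VEGF level per kb in CTL and 70.6%, 73.0% and 67.7% after TGF-β1, while Vegfb made up 33.5% to 38.0% and 16.8% to 20.9%. Among the PDGF genes the Pdgfd share was 22.9% ± 2.77 in CTL against 12.5% ± 1.43 with TGF-β1 (SD, n = 3 each), and the Pdgfa share 15.3% ± 1.91 against 20.6% ± 2.02. For these 4 shares the groups did not overlap (exact permutation test, two-sided, p = 0.1 for each of them, unadjusted over 7 shares). With 3 against 3 this test cannot give less. Shares within a family are tied by their common sum and come from the same counts as the fold changes above. They are therefore not 4 separate results. Pdgfc made up 12.3%, 22.6% and 8.26% in CTL and 24.0%, 36.9% and 19.2% after TGF-β1, higher in each same-numbered pair with overlapping groups (exact permutation test, p = 0.2). Pdgfb and Vegfc shares overlapped between groups (exact permutation test, p = 0.4 each).

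**Figure D5:**
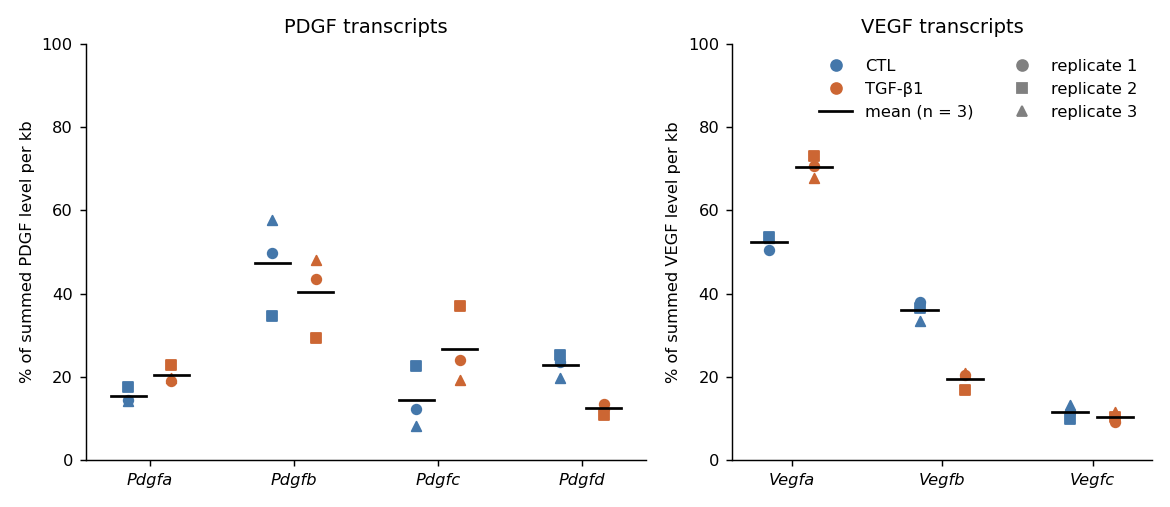
Share of each gene in the summed level per kb of exon (y axis, percent) of the PDGF family (left) and the VEGF family (right), per culture. Symbols give the replicate number and lines the mean of 3 cultures. The Vegfa share is 52.5% in CTL and 70.4% after TGF-β1 on average, and the Pdgfd share is 22.9% and 12.5%.

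The genes most alike Pdgfc in log2 CPM over the 6 cultures were Gng2, Cep170 and Kdm6b (Pearson r of 0.998, 0.998 and 0.997), and those most alike Vegfa were Ebpl, Ube2w and Map4k4 (0.998, 0.998 and 0.997). These 6 points share treatment and replicate number, and r was over 0.95 for 364 and 407 of 10910 genes compared with Pdgfc and Vegfa, so the ranks are a description only.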

How the data were processed

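RNA was sequenced from 6 RTEC cultures. The authors prepared poly(A) libraries from 100 ng of RNA with a TruSeq kit, sequenced single-end reads, trimmed them with Trim Galore, aligned them to GRCm38 with STAR 2.4.1d and counted them per gene with HTSeq 0.6.1. The deposited values are these raw counts, without normalization, and reads on several genes or places were left out. HTSeq lines that name no gene held 25.4 to 25.9% of the reads and were dropped. Symbols and exon lengths came from GENCODE M21, which matched 46005 of 46517 identifiers, and upstream windows from RefSeq (GRCm38.p6), which held 7 of the 10 members. Ero1a was matched by its older symbol.

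Counts were fitted in R 4.3.3 with edgeR 4.0.16 (filterByExpr, TMM, robust glmQLFit, two-sided glmQLFTest), without a block since the paper compares groups by an unpaired test. Standard errors came from the F statistic, intervals from its degrees of freedom. The check of replicate numbers in the labels gave correlations of deviations of 0.34, 0.684 and 0.572 between same-numbered cultures, and -0.617 to 0.215 otherwise. Same-numbered cultures were thus most alike, by a small margin for CTL replicate 1 (0.34 against 0.215 with TGF-β1 replicate 3). Deviations from a mean of 3 cultures lean to negative values between different numbers. The labels do not state that the numbers pair cultures, and the fits with the block assume it. Y-linked transcripts set apart both cultures of number 2 and say nothing of how numbers 1 and 3 pair. Alternatives included DESeq2 1.42.0 and limma 3.58.1 (voom). The fits were tested on simulated counts that held no replicate effect, so that test cannot decide between fits with and without the block. Members and lists were chosen with earlier results of these data known. Named genes were the members, 11 receptors, up to 5 called genes a list, and the 3 genes most alike the 2 called members of largest fold change. Pdgfrl, Plau, St14, Ccbe1, Pgf, Vegfd, S100a13, Angpt1, Angpt4, Angptl2, Lpl, Gpihbp1 and the marker genes were named after their values were seen. Figures used matplotlib 3.10.9.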

Additional observations from a re-analysis of the deposited data

How the results depend on the processing

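Pdgfa, Pdgfc, Pdgfd, Vegfa and Vegfb kept their direction in every fit, and RLE normalization, library size only, limma-voom and a minimum of 10 counts in every library changed no member's call. With no filter beyond 1 count, Pdgfc (1.25, adjusted p = 0.152) and Pdgfd (-0.58, 0.0588) lost their edgeR calls, leaving 1 member lower. DESeq2 added Fgf2 (1.16, adjusted p = 0.0299) and Angptl4 (1.36, 0.00367), as did the replicate block (1.14 and 1.40), each giving 5 members higher, and the block changed no other member's call. A threshold of 0.01 left 1 member higher and 0 lower. Pdgfb changed sign, near 0, with no filter (0.0013), limma-voom (0.046) and the block (0.0508). Over all tested genes, 793 rose and 1061 fell. The number that rose was 508 with library size only and 1201 with DESeq2. With the block 2388 rose and 3037 fell, and at the 0.01 threshold 127 rose and 192 fell. Without the block, leaving out 1 culture or both of a number gave log2 fold changes of 0.63 to 0.81 for Pdgfa, -0.29 to 0.34 for Pdgfb, 0.99 to 1.52 for Pdgfc, -0.66 to -0.46 for Pdgfd, 0.62 to 0.86 for Vegfa, -0.68 to -0.47 for Vegfb, 0.65 to 1.59 for Fgf2 and 1.07 to 1.77 for Angptl4. Members higher numbered 0 to 5 and lower 0 to 2, and all genes 0 to 1084 and 0 to 1290. Without both replicate 1 cultures edgeR called 0 genes, with 1938 at an unadjusted p under 0.05. With the replicate block, leaving out number 1, 2 or 3 (chosen after seeing the data) gave 1.11, 1.09 and 1.21 for Fgf2, 1.27, 1.36 and 1.58 for Angptl4, and 0.018, -0.0561 and 0.193 for Pdgfb, which passed without number 3, as did Fgf1 (-0.70). Members higher numbered 5 to 6, and 1026, 2288 and 2581 genes rose while 1649, 2718 and 3254 fell. Each of these fits has 1 residual degree of freedom a gene. Receptor estimates that changed sign over the fits without a culture ranged from -0.12 to 0.71 for Pdgfra, -0.81 to 0.052 for Kdr (0.035 without CTL replicate 2, 0.0512 with the block and without number 2) and -0.0094 to 0.30 for Nrp1. By longest transcript, Pdgfd and Pdgfa, Angptl4 and Vegfa, and Vegfc and Fgf1 swapped places in CTL, and Angptl4 and Pdgfa, and Pdgfd and Vegfa, after TGF-β1. The cause of these changes was not tested.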

Other observations

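Genes that act against vessel growth or respond to hypoxia or fatty acids were described from lists of the same kind. Their counts stand beside 5.00% of all tested genes higher and 6.69% lower, or 15.1% and 19.1% with the block. Of 6 angiogenesis inhibitor genes 1 rose and 1 fell, and with the block 3 rose and 1 fell. Thbs2, thrombospondin 2, had 18.3, 29.7 and 31.2 CPM in CTL and 100.5, 228 and 97.4 CPM after TGF-β1 (log2 fold change 2.43, adjusted p = 0.0202 from edgeR). Adamts1, a protease that can bind VEGF-A, had 959.8, 1096 and 759.7 CPM in CTL and 337, 343 and 345 CPM after TGF-β1 (log2 fold change -1.46, adjusted p = 0.0038 from edgeR).

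Of 20 hypoxia-inducible factor genes and targets 1 rose and 1 fell, with a median log2 fold change of 0.002, and with the block 3 rose and 3 fell. Egln1, an oxygen sensor, had 85.7 to 88.1 CPM in CTL and 102 to 114 CPM after TGF-β1 (log2 fold change 0.31, adjusted p = 0.0195 from edgeR). Epas1, which encodes HIF-2α, had 3.79 to 6.13 and 1.70 to 2.43 CPM (log2 fold change -1.17, adjusted p = 0.029 from edgeR). Of 12 PPAR target genes 8 were tested, 1 rose and 1 fell, and with the block 2 rose and 2 fell. Plin2, a lipid droplet protein, rose from 390.2 ± 40.2 to 852 ± 26.6 CPM (SD, n = 3 each), with a log2 fold change of 1.13 (adjusted p = 0.00269 from edgeR), and Acadm, an enzyme of fatty acid oxidation, fell by 0.39 on the log2 scale (adjusted p = 0.0237 from edgeR).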
